A study of Mus musculus with 4 samples.

Results

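The semaphorin, plexin, ephrin, Eph, Slit, Robo, netrin and Unc5 genes were followed in mouse kidney cells as a set of axon guidance genes. Members were the genes listed in all 3 library tables whose symbol begins with Sema, Plxn, Epha, Ephb, Efna, Efnb, Robo, Slit or Unc5, or is Ntn with a digit, with Sema3d left out. The rule found 42 of the 11049 genes that the tables share. They comprise 14 semaphorins, 6 plexins, 4 ephrins, 7 Eph receptors, 2 Slits, 4 Robos, 2 netrins and 2 Unc5 receptors. The last member, Unc50, met the rule by its spelling alone and is not a guidance receptor, which leaves 41 guidance genes. The rule reads symbols and whether each table lists the gene, and genes that the control table does not list, such as Epha2, were left out by it.

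Guidance proteins were named for steering growing axons, and the same ligands and receptors act between endothelial cells and their neighbours. Semaphorins signal through plexins, class 3 semaphorins mostly together with the co-receptors neuropilin 1 and neuropilin 2, and ephrins are membrane-bound ligands of Eph receptor kinases. Slits bind Robo receptors and netrins bind Unc5 receptors. In vessels, ephrin B2 is the classical marker of arterial and EphB4 of venous endothelium, while plexin D1, Unc5b and Robo4 are receptors typical of endothelial cells.

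Cells came from kidneys of C57BL/6J mice aged 10 to 14 weeks. One group had hypertension induced by angiotensin II, a pressor hormone (A2 HTN), and one had salt-sensitive hypertension (SS HTN). The control was the sum of a saline group for the angiotensin II model and a normal-diet group for the salt-sensitive model. Kidneys of all mice of a group were pooled, and the suspension passed a magnetic selection for CD31, an endothelial surface protein, and then for podoplanin, found on lymphatic vessels and on podocytes. The labels used here give no dose, duration or number of mice. Each group is 1 droplet library without a replicate, so a difference between groups has no replicate check, and its interval covers counting error only. The deposited control table joins both control libraries under barcode endings 1 and 2, and nothing used here says which ending is the saline and which the normal-diet library.

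An endothelial cell was a cell with at least 3 unique molecular identifiers (UMIs, each standing for 1 captured transcript) of Pecam1, Cdh5, Kdr and Tie1 together and at least 12 of them per 10000 UMIs. This gate held 1223 of 2837 cells in A2 HTN, 1517 of 3284 in SS HTN and 145 of 4414 in the control, of which 19 carried ending 1 and 126 ending 2. Endothelial cells held 5517870 UMIs of shared genes in A2 HTN, 3960786 in SS HTN and 377434 in the control, so ratios over control have the widest intervals. Their median depth was 4792 UMIs per cell in A2 HTN, 2371 in SS HTN and 2684 in the control, against 863, 1005 and 747 in the cells outside the gate. The 8 endothelial markers not used for the gate summed to 10147 to 12308 CPM (a gene's UMIs in a sum of cells, scaled to the same total for each sum, and not divided by transcript length) inside it and to 963 to 2262 CPM outside it. Markers of kidney tubule (21 of 22 held) summed to 466 CPM in A2 HTN, 894 CPM in SS HTN and 1486 CPM in control endothelial cells, and to 8091 CPM in those with control ending 1. They summed to 12553 to 15304 CPM in the other cells. Lymphatic identity was not checked well, since 3 of 8 lymphatic markers are held, and the defining lymphatic factor Prox1 had 12 UMIs in A2 HTN, 32 in SS HTN and 0 in control endothelial cells. The libraries shared 0 to 2 barcodes in each pair, and no doublet caller was run.

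Endothelial cells were first set against all other cells of the same library, because a guidance gene read in an endothelial sum can belong to either compartment. Members fell almost entirely on one side or the other. With edgeR's quasi-likelihood test, the count table as a block and Benjamini-Hochberg adjustment over all genes, 19 of 42 members were higher in endothelial cells and 20 were lower. Over all 11049 genes 35.6% were higher and 36.5% lower, so most genes of this contrast pass, and the shares of the members were 45.2% and 47.6%. The 3 members that missed the threshold were Robo3 (log2 fold -0.15), Slit3 (0.20) and Ntn4 (0.40). Scaling by library totals in place of TMM factors moved the split of all called genes to 3163 higher and 4997 lower, against 3931 and 4035, and their median over all genes to -0.36, against -0.05, while the members stayed at 19 and 20.

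**Figure D1:**
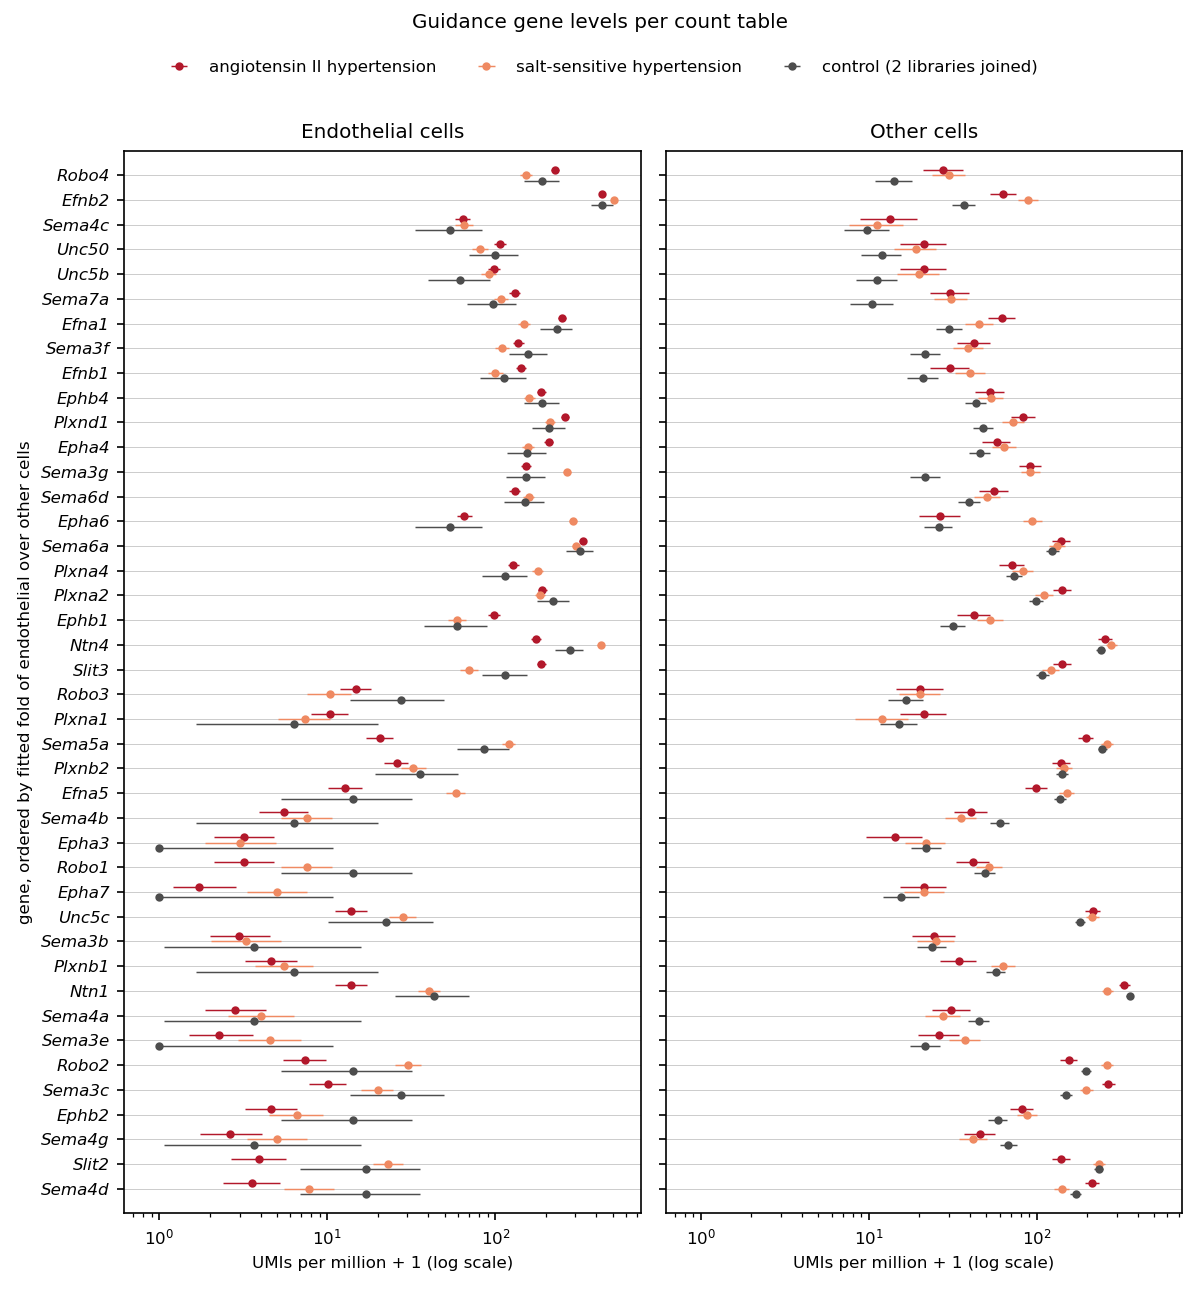
Levels of the 42 members in endothelial cells (left) and other cells (right), in CPM plus 1 on a log scale, with exact 95% Poisson intervals (counting error only). Genes run from the highest fitted fold of endothelial over other cells (Robo4, 3.36 on the log2 scale) at the top to the lowest (Sema4d, -4.71) at the bottom, and from Sema4b downwards the endothelial level in each table is at most 29.3 CPM except for Ntn1, which reached 42.4 CPM in the control.

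Of the 4 ephrins 3 were higher in endothelial cells and 1 was lower, against 35.6% and 36.5% of all genes. Efnb2, the arterial ephrin, had 430.4, 507 and 432 CPM in endothelial cells of A2 HTN, SS HTN and control, against 62.1, 87.4 and 35.8 CPM in other cells. All endothelial values lie above all values of the other cells, and the fitted log2 fold was 3.27 ± 0.26 (SE, n = 3 tables; edgeR adjusted p = 6.5e-05). Efna1, a ligand of EphA receptors that inflammatory cytokines induce in endothelium, gave 2.52 ± 0.26, and Efnb1, a second ligand of EphB receptors, gave 2.28 ± 0.25. Efna5, another EphA ligand, was lower, at -1.999 ± 0.355.

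Semaphorins were divided, with 6 of 14 higher (42.9%) and 8 lower (57.1%), against 35.6% and 36.5% of all genes. The higher ones were Sema4c (2.84 ± 0.19), Sema7a (2.62 ± 0.27), Sema3f (2.30 ± 0.27), Sema3g (1.93 ± 0.36), Sema6d (1.90 ± 0.18) and Sema6a (1.58 ± 0.17). Sema7a is anchored in the membrane by a lipid, Sema3f and Sema3g are secreted, and Sema4c, Sema6a and Sema6d span the membrane. Sema3g had 152, 266 and 151 CPM in endothelial cells of A2 HTN, SS HTN and control, against 90.5, 90.7 and 20.7 CPM in other cells. Sema4d, a plexin B1 ligand abundant on lymphocytes, was the lowest member, with 2.54, 6.82 and 15.9 CPM in endothelial and 213, 139.7 and 169.8 CPM in other cells (log2 fold -4.71 ± 0.46, edgeR adjusted p = 9.7e-05). The remaining lower semaphorins were Sema4g (-3.72), Sema3c (-3.53), Sema3e (-3.48), Sema4a (-3.29), Sema3b (-3.13), Sema4b (-2.51) and Sema5a (-1.67). Sema3e, the ligand of plexin D1, thus had its level outside the endothelial gate, at 25.2, 36.4 and 20.7 CPM in other cells, against 1.27, 3.53 and 0 CPM in endothelial cells.

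The plexins, receptors of the semaphorins, were split 3 and 3 (50% each), against 35.6% higher and 36.5% lower of all genes. Plxnd1 (2.08 ± 0.18), Plxna4 (1.21 ± 0.16) and Plxna2 (1.08 ± 0.19) were higher in endothelial cells. Plxnb1, the Sema4d receptor (-3.17 ± 0.24), and Plxnb2 (-1.97 ± 0.17) were lower. Plxna1 was lower at -0.71 ± 0.26 with an adjusted p of 0.041, and kept its call only with library totals, with no filter and with other cells that lack any gate UMI, among the alternatives run. Plxnd1 had 258, 209.6 and 207 CPM in endothelial cells of A2 HTN, SS HTN and control, against 81.9, 71.1 and 46.9 CPM in other cells.

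Of the Eph receptors 4 of 7 were higher (57.1%) and 3 were lower (42.9%), against 35.6% and 36.5% of all genes. Ephb4, the receptor of ephrin B2 in veins, gave 2.17 ± 0.17, with 187, 158 and 188 CPM in endothelial cells and 51.4, 52.3 and 42.3 CPM in other cells. Epha4, which binds ephrins of both classes, gave 1.95 ± 0.18. Epha6 gave 1.71 ± 0.18 and Ephb1 1.05 ± 0.24. Ephb2 (-3.67 ± 0.33), Epha7 (-2.99 ± 0.51) and Epha3 (-2.77 ± 0.38) were lower.

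Of the Slit, Robo and netrin genes, Slit2, Robo1, Robo2 and Ntn1 were lower in endothelial cells, Robo4 was higher, and Slit3, Robo3 and Ntn4 were not called. Robo4, the Robo receptor of endothelium, was the highest member, with 225, 151 and 188 CPM in endothelial cells of A2 HTN, SS HTN and control, against 26.8, 29.0 and 13.1 CPM in other cells (log2 fold 3.36 ± 0.28, edgeR adjusted p = 6.8e-05). Its 2 relatives Robo1 (-2.96 ± 0.36) and Robo2 (-3.49 ± 0.30), receptors of secreted Slits, were lower. The ligand Slit2 was lower, at -3.88 ± 0.40, and had 139, 234 and 233 CPM in other cells, against 2.90, 21.97 and 15.9 CPM in endothelial cells. Slit3, the other Slit, was read in both compartments, with 187, 68.9 and 114 CPM in endothelial and 141, 120 and 107 CPM in other cells. Netrin 1 (Ntn1) was lower, at -3.22 ± 0.39. Netrin 4 (Ntn4) had 173, 422 and 276 CPM in endothelial and 254, 277 and 239.8 CPM in other cells, and the ranges overlap. Of the Unc5 receptors, Unc5b was higher (2.64 ± 0.17) and Unc5c lower (-3.12 ± 0.26). Unc50 was higher, at 2.82 ± 0.22.

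Co-receptors and intracellular effectors of these pathways, a list of 61 genes of which 54 are held, had 23 members higher and 21 lower in endothelial cells. These are 42.6% and 38.9%, near the 35.6% and 36.5% of all genes, and the median log2 fold was 0.11, against -0.05 over all genes. The neuropilins Nrp1 (2.53 ± 0.28) and Nrp2 (1.46 ± 0.16) were both higher. Also higher were the small GTPases Rras (3.19), Rac1 (2.45) and Cdc42 (2.10). Lower genes included Src (-3.93), the Slit-Robo GTPase activator Srgap3 (-3.80) and Met (-3.53), a receptor kinase that associates with plexins.

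Promoter sequences are printed for 4 members that the comparisons turn on: Efnb2 from the contrast above, Epha6 and Ntn4, which were higher in Fbln5-positive cells below, and Ephb1, which was lower there. They are the 250 bases before the RefSeq transcription start on GRCm38.p6, the assembly of mm10, with matches to GGAAG or its reverse complement CTTCC, the core of ETS factor sites, in capitals.
Efnb2, chr8:8661243-8661492, minus strand: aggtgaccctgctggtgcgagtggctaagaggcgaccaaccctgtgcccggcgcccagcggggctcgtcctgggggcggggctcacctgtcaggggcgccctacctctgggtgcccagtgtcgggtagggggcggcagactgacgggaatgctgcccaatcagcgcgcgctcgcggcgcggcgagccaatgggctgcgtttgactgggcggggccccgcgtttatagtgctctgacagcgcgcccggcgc
Epha6, chr16:60605532-60605781, minus strand: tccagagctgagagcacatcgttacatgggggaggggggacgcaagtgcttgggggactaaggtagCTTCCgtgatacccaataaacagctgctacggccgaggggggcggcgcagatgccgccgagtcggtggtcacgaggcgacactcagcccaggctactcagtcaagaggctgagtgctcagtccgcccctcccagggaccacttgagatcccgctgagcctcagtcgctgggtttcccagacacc
Ephb1, chr9:102354694-102354943, minus strand: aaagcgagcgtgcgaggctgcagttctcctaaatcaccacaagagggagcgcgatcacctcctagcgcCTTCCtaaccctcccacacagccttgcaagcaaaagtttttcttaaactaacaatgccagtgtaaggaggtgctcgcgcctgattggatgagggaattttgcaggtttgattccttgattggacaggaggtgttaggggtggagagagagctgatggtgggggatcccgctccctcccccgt
Ntn4, chr10:93640799-93641048, plus strand: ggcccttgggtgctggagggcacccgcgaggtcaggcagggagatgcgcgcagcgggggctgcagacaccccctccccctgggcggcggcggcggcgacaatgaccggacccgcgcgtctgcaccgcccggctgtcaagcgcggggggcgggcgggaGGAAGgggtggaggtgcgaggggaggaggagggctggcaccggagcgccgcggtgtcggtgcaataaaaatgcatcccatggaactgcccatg
The ETS core occurred in none of the letters shown for Efnb2 and once each for Epha6, Ephb1 and Ntn4. The start site of Epha6 used here lies inside the gene's RefSeq span, which runs from 59641433 to 60610911 on chromosome 16. RefSeq windows matched 36 of 42 members and numbered 49. On both strands the ETS core occurred in 65.3% of these windows, against 64.1% of all 32851 windows. The letters CCACCC or GGGTGG, a core of KLF factor sites, occurred in 55.1% of the members' windows, against 28.1% of all windows, and AACAAT or ATTGTT, a SOX core, in 4.08%, against 9.42%. The windows of Epha6 and Ephb1 hold 62.8% and 54.0% of G and C, against 72.0% for Efnb2 and 73.2% for Ntn4, and base composition was not matched between members and all windows.

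Endothelial cells were next divided by Fbln5, an elastic fibre protein of arterial vessels, and Igfbp3, an insulin-like growth factor binding protein of peritubular capillaries. Cells with Fbln5 and no Igfbp3 UMI are called Fbln5-positive, and those with Igfbp3 and no Fbln5 UMI Igfbp3-positive. Fbln5-positive cells numbered 69 in A2 HTN, 188 in SS HTN and 7 in the control, and Igfbp3-positive cells 772, 558 and 68. The 5 arterial markers held beside Fbln5 summed to 4302, 4131 and 1708 CPM in Fbln5-positive cells, against 411, 491 and 289 CPM in Igfbp3-positive cells. The 6 capillary markers held beside Igfbp3 summed to 3007, 1850 and 3181 CPM in Fbln5-positive and 14786, 12685 and 14967 CPM in Igfbp3-positive cells. Since 1 UMI decides the class, deeper cells are more often positive, and cells of all depths entered.

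Guidance members differed between these endothelial classes in both directions. Of 26 members that passed the filter on low counts 8 were higher in Fbln5-positive cells and 8 were lower, or 30.8% each, against 4.88% and 5.14% of the 7127 genes tested. These shares describe the list and carry no test, since a member could pass the filter through a high level in 1 class. Higher were Epha6, Sema5a, Ntn1, Robo2, Unc5c, Ntn4, Sema6d and Sema3g, and lower were Slit3, Ephb1, Efna1, Unc5b, Sema7a, Robo4, Efnb1 and Epha4. The count was sensitive to method and library. DESeq2 called 4 members, thinning every cell to 1000 UMIs left Robo4 alone of 13 tested, and the count was 5 without the A2 HTN table, 4 without the SS HTN table and 15 without the control. Sema5a, Ntn1 and Slit3 passed under every alternative in which they were tested.

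**Figure D2:**
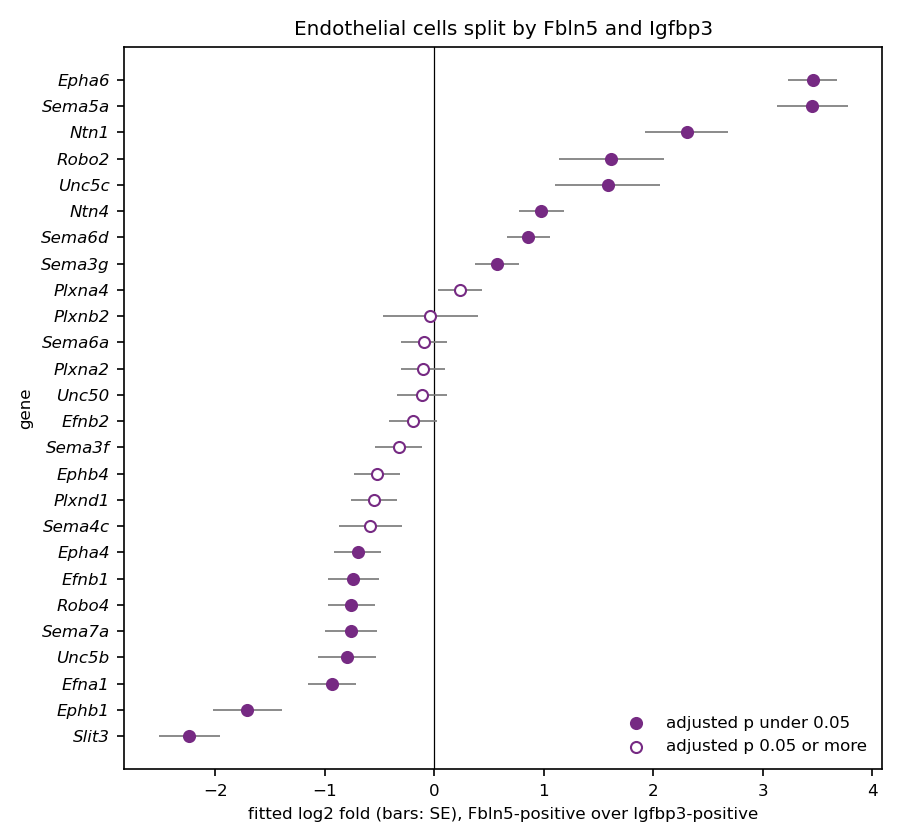
Fitted log2 fold of Fbln5-positive over Igfbp3-positive endothelial cells for the 26 members tested, with standard errors of the fit to 3 count tables. The fit pooled variability over genes, so these errors do not measure a gene's own spread between tables. Filled points passed edgeR's adjusted p of 0.05, with Epha6 (3.46) and Sema5a (3.45) highest and Slit3 (-2.24) lowest.

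Epha6, an Eph receptor kinase, had 336 CPM in A2 HTN and 560.0 CPM in SS HTN Fbln5-positive cells (93 and 365 UMIs), against 3.32 and 129 CPM in Igfbp3-positive cells (12 and 177 UMIs). Control Epha6 had 0 UMIs in both classes, with 7 and 68 cells, where 3 UMIs would be 177 and 15.5 CPM. Its 20 control UMIs all came from cells with neither gene, at 131 CPM. The fitted log2 fold was 3.46 ± 0.23 (n = 3 tables, edgeR adjusted p = 2.1e-49), which DESeq2 did not call, at 3.96. With 0 UMIs in both control classes, this fold rests on the A2 HTN and SS HTN tables. Its p-value uses variability pooled over genes and does not measure the spread between these tables. The most Epha6 UMIs in a single Fbln5-positive cell were 24 in A2 HTN and 38 in SS HTN. Sema5a, a membrane semaphorin, had 72.3, 178 and 353 CPM in Fbln5-positive cells of A2 HTN, SS HTN and control, against 5.53, 20.5 and 5.17 CPM in Igfbp3-positive cells. Of the 6 control UMIs in Fbln5-positive cells 5 came from ending 1. All Fbln5-positive values lie above all Igfbp3-positive values, at a fitted log2 fold of 3.45 ± 0.32 (edgeR adjusted p = 2.6e-24), although it was lower in endothelial than in other cells as a whole. Tubule markers summed to 705, 614 and 2474 CPM in Fbln5-positive cells and to 350.2, 785 and 713 CPM in Igfbp3-positive cells, and glomerular endothelial markers (5 of 7 held) to 1131, 1849 and 5360 CPM, against 641, 777 and 739 CPM. Venous markers (2 of 5 held) summed to 253, 203 and 825 CPM in Fbln5-positive and 159, 75.3 and 82.7 CPM in Igfbp3-positive cells. Fibroblast and mural markers (8 of 10 held) summed to 177, 36.8 and 0 CPM in Fbln5-positive and 11.6, 27.03 and 46.5 CPM in Igfbp3-positive cells. The part of these marker genes in the differences between the classes was not tested.

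The netrins were both higher in Fbln5-positive cells. Ntn4, a laminin-binding netrin of vascular basement membrane, had 339.8, 489 and 412 CPM in Fbln5-positive cells of A2 HTN, SS HTN and control, against 126, 321 and 160.2 CPM in Igfbp3-positive cells. Each table showed this order (log2 fold 0.98 ± 0.21, edgeR adjusted p = 6.5e-05). The control Fbln5-positive value rests on 3 UMIs of ending 1 and 4 of ending 2. Within ending 1 the order was reversed, at 624 CPM in Fbln5-positive and 802 CPM in Igfbp3-positive cells, on 3 and 5 UMIs. Ntn1 gave 2.31 ± 0.38 on 16, 51 and 1 UMIs in Fbln5-positive cells, against 27, 27 and 4 in Igfbp3-positive cells. Sema6d (0.86 ± 0.20) and Sema3g (0.58 ± 0.20, adjusted p = 0.047) were modestly higher, and the secreted Sema3g had 239 and 391 CPM in A2 HTN and SS HTN Fbln5-positive cells, against 141.5 and 246 CPM in Igfbp3-positive cells. In the control Sema3g had 0 UMIs in 7 Fbln5-positive cells and 196 CPM in Igfbp3-positive cells. Robo2 (1.62 ± 0.48) rested on 7, 24 and 1 UMIs and Unc5c (1.58 ± 0.48) on 7, 21 and 2 UMIs in Fbln5-positive cells of A2 HTN, SS HTN and control. Efna5 missed edgeR's filter on low counts, with 148 and 221 CPM in A2 HTN and SS HTN Fbln5-positive cells, against 4.15 and 11.0 CPM in Igfbp3-positive cells. DESeq2 tested it and gave a log2 fold of 4.57 ± 0.58 (adjusted p = 3.0e-12). In the control 0 of 7 Fbln5-positive and 1 of 68 Igfbp3-positive cells had an Efna5 UMI, so this fold rests on A2 HTN and SS HTN. Fbln5-positive cells with an Efna5 UMI numbered 9 in A2 HTN and 40 in SS HTN, and a single cell held up to 10 and 15 UMIs.

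Slit3, a secreted Robo ligand, was the lowest member, with 65.1, 15.3 and 0 CPM in Fbln5-positive cells of A2 HTN, SS HTN and control, against 208, 114 and 149.9 CPM in Igfbp3-positive cells (log2 fold -2.24 ± 0.28, edgeR adjusted p = 8.2e-14). Ephb1, a receptor of B ephrins, had 68.7, 9.21 and 0 CPM, against 105, 87.7 and 77.5 CPM (-1.71 ± 0.32, adjusted p = 2.7e-06). For Slit3 and Ephb1 the control value of 0 came from 7 Fbln5-positive cells, where 3 UMIs would be 177 CPM. That lies above both control levels in Igfbp3-positive cells, so the control says little on the direction. The 6 other lower members lay between -0.93 (Efna1) and -0.70 (Epha4). They include the endothelial receptors Robo4 (-0.76 ± 0.21) and Unc5b (-0.80 ± 0.27). Efnb2, the arterial ephrin, gave -0.20 ± 0.22 with an adjusted p of 0.80, and Ephb4 gave -0.52 ± 0.21 with an adjusted p of 0.11. Of the 39 co-receptors and effectors tested none was higher and 2 (5.13%) were lower, against 4.88% and 5.14% of genes. The lower ones were Nrp2 (-1.40 ± 0.23) and the exchange factor Vav3 (-0.98 ± 0.23).

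The hypertension models were then compared in endothelial cells, a contrast of 1 library with another. A member was called where both sums together held 20 UMIs or more, the ratio of CPM + 5 was at least 1.5-fold and the exact 95% interval of the plain ratio, unadjusted for the number of genes, excluded 1. More members were lower than higher in A2 HTN relative to SS HTN. Of 42 members 3 were higher and 13 lower (31.0%), against 3.25% and 7.59% of the 10697 genes tested, and their median log2 ratio was -0.24, against -0.03 over all genes. The higher members were Slit3, Efna1 and Ephb1, and the lower ones Sema5a, Epha6, Efna5, Slit2, Robo2, Ntn1, Ntn4, Unc5c, Sema3g, Sema3c, Robo1, Epha7 and Sema4d. Of the 13 lower members 10 were also lower in endothelial than in other cells. In that contrast 47.6% of all members and 36.5% of all genes were lower. Tubule markers summed to 466 CPM in A2 HTN and 894 CPM in SS HTN endothelial cells, and their part in these calls was not tested. In cells with under 1% of tubule markers, where these sums were 326 and 753 CPM, 15 members were called. The sums still differed there, and the share of all genes called under this limit was not taken.

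The classes of endothelial cells were not equally represented. Fbln5-positive cells made up 5.64% of A2 HTN and 12.4% of SS HTN endothelial cells. Igfbp3-positive cells made up 63.1% and 36.8%, and cells with neither gene 23.5% and 43.8%. These shares were not taken at equal depth, and the median was 4792 UMIs per endothelial cell in A2 HTN and 2371 in SS HTN. The capillary markers without Igfbp3 summed to 12481 and 7963 CPM, the arterial markers without Fbln5 to 741 and 1328 CPM, and the glomerular markers to 827 and 1533 CPM. With the 4 classes weighted equally, a setting chosen after seeing the data, 13 members were called. Only the ratio was weighted in that setting, and the interval stayed that of the unweighted sums. The part of the class shares in the calls was therefore not tested.

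**Figure D3:**
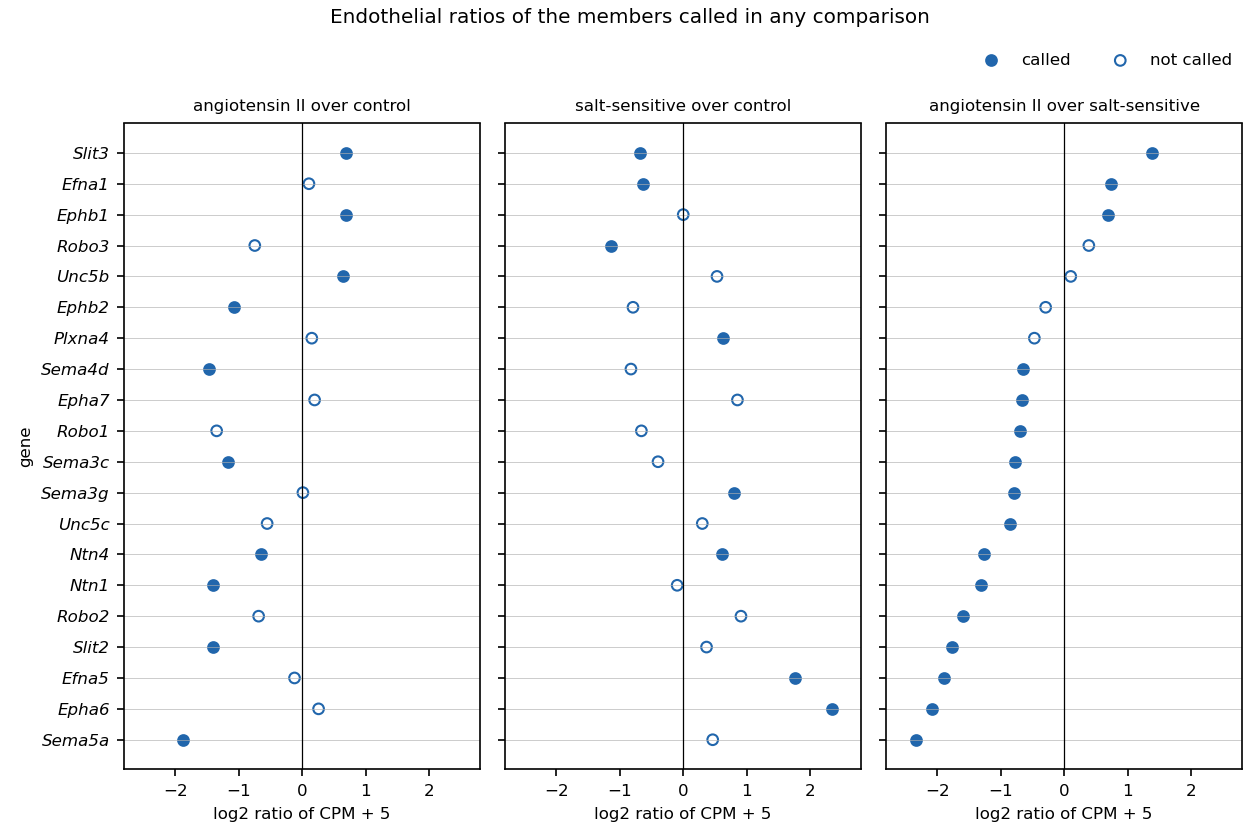
Log2 ratios of CPM + 5 in endothelial cells for the 20 members called in at least 1 comparison, with filled points for calls. The hypertension libraries are each set over the shared control (left and middle) and A2 HTN over SS HTN (right), where ratios run from -2.33 (Sema5a) to 1.38 (Slit3).

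Slit3 had 187 CPM in A2 HTN and 68.9 CPM in SS HTN endothelial cells, from 1033 and 273 UMIs, a log2 ratio of 1.38 (95% interval of the plain ratio 1.25 to 1.64). The difference was present in each class, with 208 against 114 CPM in Igfbp3-positive cells, 65.1 against 15.3 CPM in Fbln5-positive cells, 165 against 45.5 CPM in cells with both genes and 159 against 57.3 CPM in cells with neither. In other cells the values were 141 and 120 CPM. Efna1 had 248 CPM in A2 HTN and 147 CPM in SS HTN, a log2 ratio of 0.73 (0.61 to 0.90). Ephb1 had 97.0 and 58.3 CPM, a log2 ratio of 0.69 (0.51 to 0.96), and at 1000 UMIs per cell its ratio was 0.19 and no longer called.

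Epha6 had 64.3 CPM in A2 HTN and 289 CPM in SS HTN endothelial cells, from 355 and 1144 UMIs, a log2 ratio of -2.08 (-2.34 to -1.99). At least 1 Epha6 UMI was found in 4.74% of A2 HTN and 17.6% of SS HTN endothelial cells, and in 2.68% and 11.6% after thinning to 1000 UMIs, which kept 1195 and 1480 cells. The other cells gave 2.60% and 7.07%, and thinned 2.37% and 4.83% of 676 and 890 cells, and had 25.7 and 93.2 CPM. The widest gap stood in Igfbp3-positive cells, with 3.32 CPM in A2 HTN and 129 CPM in SS HTN (-4.01, plain interval -6.26 to -4.44). There 6 of 772 A2 HTN and 41 of 558 SS HTN cells had an Epha6 UMI, or 0.777% (exact 95% interval 0.286 to 1.68) and 7.35% (5.32 to 9.84), and 1 SS HTN cell alone held 40. The intervals of these shares treat cells of 1 library as independent, so they do not measure a spread between mice or libraries. Both shares were taken at full depth, with medians of 4877.5 and 2315 UMIs per cell. In Fbln5-positive cells the values were 336 and 560.0 CPM (-0.73), and the direction turned to 0.27 when a class gene needed 2 UMIs.

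**Figure D4:**
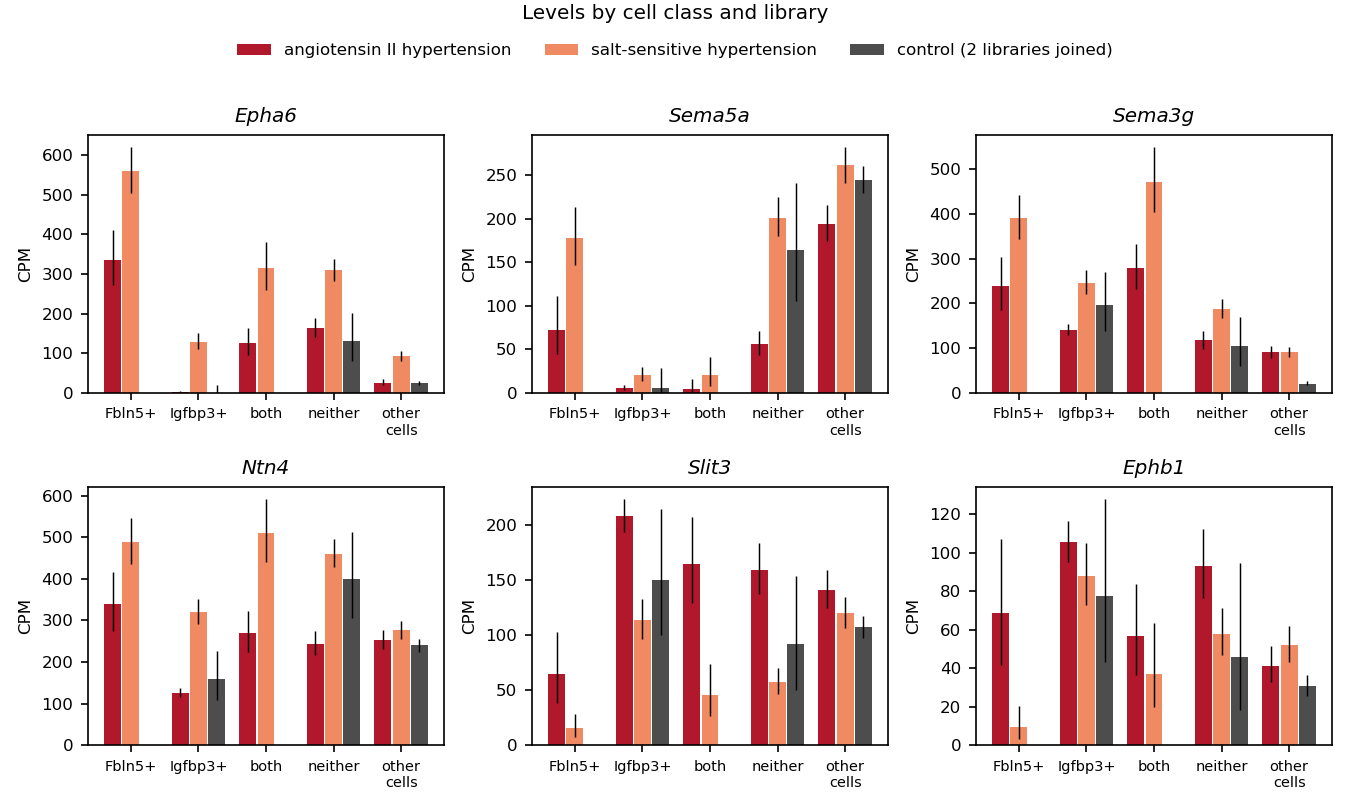
CPM of 6 members in endothelial cells by class and in other cells, with exact 95% Poisson intervals (counting error only). The control is not drawn for Fbln5-positive cells or cells with both genes, which held 7 and 5 control cells, and SS HTN lies above A2 HTN for Epha6, Sema5a, Sema3g and Ntn4 in every endothelial class and below it for Slit3 and Ephb1.

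Sema5a had 19.6 CPM in A2 HTN and 119 CPM in SS HTN endothelial cells, a log2 ratio of -2.33 (-2.92 to -2.30). Ntn4 had 173 and 422 CPM, a ratio of -1.26 (-1.40 to -1.17), and Sema3g 152 and 266 CPM, a ratio of -0.79 (-0.94 to -0.68). Efna5 had 11.8 and 57.1 CPM, a ratio of -1.89. Slit2 (-1.77), Robo2 (-1.60) and Ntn1 (-1.31) rested on 16 to 71 UMIs in A2 HTN and 87 to 156 in SS HTN. The remaining lower members lay between -0.85 (Unc5c) and -0.65 (Sema4d), and Robo1 turned to 0.27 after thinning. No plexin and neither Efnb2 nor Ephb4 was called. The plexins had a median of -0.05. Of 53 co-receptors and effectors tested 2 (3.77%) were higher in A2 HTN and 8 (15.1%) lower, against 3.25% and 7.59% of genes. The higher ones were Vasp (0.87) and Cfl1 (0.61), which act on actin filaments. The lower ones lay between -0.98 (Flrt2, a membrane protein that binds Unc5 receptors) and -0.66 (Ngef, an exchange factor downstream of EphA receptors).

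Within Igfbp3-positive cells 1 of 32 members tested was higher in A2 HTN, against 4.68% of genes, and 10 were lower, against 5.82% of genes. Slit3 was the higher one, at 0.84 (0.62 to 1.13). The lower ones were Epha6, Slit2 (-1.92), Ntn4 (-1.32), Sema5a (-1.27), Robo2 (-1.21), Ntn1 (-0.99), Sema3c (-0.84), Unc5c (-0.82), Efna5 (-0.80) and Sema3g (-0.78). Ntn4 had 126 CPM in A2 HTN and 321 CPM in SS HTN Igfbp3-positive cells, and Sema3g 141.5 and 246 CPM. Slit3, Epha6, Ntn4 and Sema3g were the 4 calls left after thinning to 1000 UMIs. Tubule markers summed to 350.2 and 785 CPM in these cells, and 11 members were called where they were held under 1% of UMIs. With that limit the sums were still 321 and 740 CPM, and the share of all genes called was not taken.

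Within Fbln5-positive cells 5 of 27 members were higher in A2 HTN, against 4.77% of genes, and 3 were lower, against 4.7% of genes. Ephb1 had 68.7 CPM in A2 HTN and 9.21 CPM in SS HTN, a log2 ratio of 2.37 (1.52 to 4.51) on 19 and 6 UMIs. Slit3 gave 1.78 on 18 and 10 UMIs, Efna1 0.83, Robo4 0.76 and Unc50 0.72. Sema5a (-1.24), Epha6 (-0.73) and Sema3g (-0.70) were lower. Thinning left 2 calls and turned Robo4 to -0.88. Fibroblast and mural markers (8 of 10 held) summed to 177 CPM in A2 HTN and 36.8 CPM in SS HTN Fbln5-positive cells, and their part in these differences was not tested.

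Each hypertension library was last set over the control, which both comparisons share. In A2 HTN 3 of 35 members tested were higher than in the control and 7 lower, against 2.89% and 6.29% of genes. The higher ones were Slit3 (0.69, interval 0.28 to 1.19), Ephb1 (0.69, 0.12 to 1.42) and Unc5b (0.64, 0.08 to 1.35). Slit3 had 187 CPM in A2 HTN and 114 CPM in the control, from 43 control UMIs. The lower ones were Sema5a (-1.87), Sema4d (-1.47), Ntn1 (-1.41), Slit2 (-1.40), Sema3c (-1.16), Ephb2 (-1.08) and Ntn4 (-0.65). All but Ntn4 were also lower in endothelial than in other cells, as were 47.6% of all members and 36.5% of all genes. Tubule markers summed to 466 CPM in A2 HTN and 1486 CPM in control endothelial cells, and in cells with under 1% of them, where the sums were 326 and 730.2 CPM, 6 members were called. The sums still differed under this limit, and the share of all genes called was not taken. Against control ending 2 alone 4 calls remained, with Ephb1 and Slit3 higher and Ntn4 and Sema5a lower. Sema5a had 437 CPM in the 19 endothelial cells of ending 1 and 49.6 CPM in the 126 of ending 2.

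In SS HTN 5 of 36 members tested were higher than in the control and 3 lower, against 4.39% and 5.39% of genes. Epha6 had 289 CPM in SS HTN and 53.0 CPM in the control, from 20 control UMIs, a log2 ratio of 2.34 (1.81 to 3.16). Efna5 gave 1.77 (0.86 to 3.74) on 5 control UMIs, Sema3g 0.80 (0.43 to 1.23), Plxna4 0.62 (0.20 to 1.12) and Ntn4 0.61 (0.33 to 0.92). The lower ones were Robo3 (-1.13), Slit3 (-0.69) and Efna1 (-0.63). After thinning to 1000 UMIs Epha6 and Ntn4 were the 2 calls left. Efna1 and Efna5 changed direction when control ending 1 stood alone. Of 53 co-receptors and effectors tested none was higher in SS HTN and 1 (1.89%) was lower, against 4.39% and 5.39% of genes. The lower one was the actin-severing cofilin gene Cfl1 (-0.59). In A2 HTN 2 of 51 were higher, Limk2 (0.84) and Vasp (0.68), and 2 were lower, Flrt2 (-1.14) and Nedd4l (-0.93). These are 3.92% each, against 2.89% and 6.29% of genes. Their control UMIs were 9, 24, 14 and 40 in that order, and the interval of Limk2 was 0.02 to 2.12. Of the 2 lower ones Nedd4l was also lower in endothelial than in other cells (-2.94), and Flrt2 was not called there (0.20).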

How the data were processed

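UMI counts per gene and cell were deposited by the authors, with no normalization. Cell Ranger 7.0.0, Seurat 4.1 and the build mm10 appear in the submitters' processing notes, with no step attached; assignment of reads shared by near-identical copies and depth equalization on joining are not given in the sources used here. Tables were matched to groups by name. A joined hypertension table was an alternative only: its 2727 shared A2 HTN cells hold 88.2% of the UMIs of the separate table.

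Counts were summed per cell class and library over the 11049 shared genes, which hold 98.7% to 99.1% of the UMIs, and scaled to CPM. No filter on cells was added. With 1 library per group no test was made: log2 ratios use CPM + 5, which understates low genes, beside an exact 95% interval of the plain ratio by Clopper-Pearson limits on the split of UMIs, which can therefore lie beyond the ratio printed. Classes within libraries were compared with edgeR 4.0.16 (TMM, filterByExpr, quasi-likelihood, Benjamini-Hochberg, count table as block). The 3 tables are different groups and stand in for replicates. For Fbln5-positive over Igfbp3-positive cells the fit pooled variability over genes. Its standard errors and p-values therefore do not measure a gene's own spread between tables. DESeq2 1.42.0 was an alternative. Scripts used Python 3.11.15 and R 4.3.3 and were tested on simulated counts, where the ratio rule also called some unchanged genes, most against the small control. Promoters come from a RefSeq table of GRCm38.p6.

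Other alternatives changed the pseudocount, scaling, UMI minimum, gate, class threshold, depth per cell, tubule limit, cell weighting, control library or a left-out table. Named were all members with 100 or more endothelial UMIs, all members called, and called partner genes where a result turned on them. Members, lists and tests were chosen with earlier results of these data known. Intervals cover counting error only.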

Additional observations from a re-analysis of the deposited data

Results flagged for a closer look

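Ntn4 and Slit3 moved in opposite directions in the models over the shared control. Ntn4 gave a log2 ratio of -0.65 in A2 HTN over control endothelial cells and 0.61 in SS HTN over control. Slit3 gave 0.69 in A2 HTN over control and -0.69 in SS HTN over control. The difference between the models was not tested, since each is 1 library, and both ratios rest on the same 104 (Ntn4) and 43 (Slit3) control UMIs.

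Guidance genes listed in both hypertension tables and not in the control table stood outside the comparisons. In endothelial cells Epha2 had 171 UMIs in A2 HTN and 84 in SS HTN. Sema6b had 108 and 64, Sema5b 69 and 35, and Unc5a 31 and 26. Since the control table does not list these genes, they have no control level here.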

How the results depend on the processing

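Of 1060 values of single members under other settings, 913 kept their direction and their call, 141 kept the direction and lost the call, and 6 reversed. Members that fell below edgeR's count filter under a setting are not among the 1060. Dropping the UMI minimum could not remove a call. Dropping the count filter left 3931 higher and 4035 lower genes for endothelial over other cells, as in the main fit. Thinning cells to 1000 UMIs left 3 members called for A2 HTN over control, 2 for SS HTN over control, 10 for A2 HTN over SS HTN, 4 in Igfbp3-positive and 2 in Fbln5-positive cells, against 10, 8, 16, 11 and 8. The tubule limit left 6 for A2 HTN over control, and control ending 2 alone left 4. Reversed were, for SS HTN over control ending 1, Efna1 (0.33) and Efna5 (-0.0265); for A2 HTN over SS HTN after thinning, Robo1 (0.27) and, in Fbln5-positive cells, Robo4 (-0.88); and with 2 UMIs required of a class gene Robo4 (-0.0295) and Epha6 (0.27). Fewer counts enter after thinning; otherwise the cause was not tested.

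For Fbln5-positive over Igfbp3-positive cells 16 members were called. DESeq2 called 4, thinned cells gave 1, no block 10, 2 UMIs per class gene 9, and leaving out 1 of the tables between 4 and 15. Over all genes these tests called 714 in edgeR, 291 in DESeq2, 96 after thinning, and 219 without A2 HTN, 159 without SS HTN and 895 without the control. For endothelial over other cells leaving out 1 of the tables gave 38 to 39 member calls. No paired analysis across mice was possible because each group is 1 pooled library. Depth limits the control, whose endothelial sum holds 377434 UMIs, 34358 of them with ending 1.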

Other observations

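Epha1, Ntn3 and the antisense transcript Plxna4os1 are listed outside the genes that all tables share. In A2 HTN endothelial cells they had 6, 15 and 46 UMIs. Plxnc1 and Sema3a, listed in the control table, had 0 and 1 UMIs in its endothelial cells and 46 and 34 in its other cells.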
